A study of Mus musculus with 12 samples.

Results

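T cells of the colon lamina propria were compared between recipients of Th1 cells that lacked the interleukin-23 receptor (KO) and recipients of Th1 cells that kept it (control). A cell was taken as a T cell where its unique molecular identifiers (UMIs, each standing for 1 captured RNA molecule) of Cd3d, Cd3e and Cd3g, the genes of the CD3 signalling chains, together came to at least 3. This rule kept 10628 of the 11522 colon lamina propria cells, out of 32763 cells in the series. The control Th1 cells carried 1 wild-type allele of Il23r and 1 allele holding the eGFP reporter (Il23r wt/eGFP), and the KO cells carried the reporter on both alleles (Il23r eGFP/eGFP), so that an eGFP allele was present in both genotypes. The cells had been transferred into recipient mice, whose strain, age and own T cells the sources used here do not give, and the labels call the harvested cells CD4 T cells. Each genotype had 2 libraries, numbered 1 and 2, and the number was also the batch, so each batch held 1 control and 1 KO library. The labels do not say that the libraries came from separate animals, so p-values measure the spread between these samples, which may be technical. The series title names the question, whether Th1-like cells need this receptor to take on a state that drives colitis.

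Interleukin-23 binds a receptor made of the Il23r chain and the Il12rb1 chain, which the interleukin-12 receptor also uses. The kinases JAK2 and TYK2 on these chains activate mainly the transcription factor STAT3, which in T cells drives Th17 genes such as the cytokines Il17a, Il17f and Il22. Interleukin-12 acts instead mainly through STAT4 and promotes Th1 cells, marked by the factor T-bet (Tbx21) and the cytokine interferon gamma (Ifng), and T cells of the inflamed gut are known to shift between these states.

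The control libraries held 1383 and 3246 kept cells and the KO libraries 2739 and 3260 (batch 1, then batch 2), with 7041088 to 13248318 UMIs per library. At the edge of the rule, 35 to 216 kept cells per library had exactly 3 CD3 UMIs and 30 to 183 cells left out had 2. The median depth of a kept cell was lower in KO in both batches, at 4450 against 3938 UMIs in batch 1 and 2917 against 2327.5 in batch 2. The 11 measured T cell markers summed to 6735 to 8731 CPM per library (counts scaled to a common library total). They include Cd3d, Cd3e and Cd3g, by which the cells were chosen, so this sum is no check of the rule. Cd8a and Cd8b1, which mark CD8 T cells, together came to 1.96 to 5.11 CPM, so the label as CD4 T cells was not contradicted. Markers of macrophages, epithelium and B and plasma cells served as the markers of other cells. Kept cells that also had 3 or more UMIs of these markers made up 0.429% to 0.739% of a library. Between 3 and 17 barcodes of kept cells were shared by any pair of these libraries. In a principal component analysis of these sums, component 1 (63.7% of variance) separated the batches and component 2 (19.4%) set control 2 and KO 2 farthest apart. Levels of genes are UMIs summed over the kept cells of a library, as CPM scaled by the TMM method of edgeR. Sums of marker lists are CPM without the TMM scaling. Each difference is a log2 value of KO over control, ± its standard error (SE). Differences were fitted with the batch as a term, except where 1 library was left out of the colon comparison. A sum over cells cannot tell more cells that make an RNA from more RNA per cell.

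No gene passed the test in colon lamina propria T cells. By the quasi-likelihood test of edgeR, 0 of 10446 genes (0%) had a Benjamini-Hochberg adjusted p under 0.05, and the smallest adjusted p was 0.477. At an unadjusted p under 0.05 there were 119 genes higher and 163 lower in KO (2.7% of those tested), and DESeq2 also called 0 genes. Both batch pairs put KO above control for 2421 genes (23.2%) and below it for 2338 genes (22.4%), and these shares are the background for every count of a list. The median difference over all genes tested was 0.0015. In simulated counts of this design, 97% of genes changed by 2 on the log2 scale and 44% of those changed by 1 were called. The changed genes were drawn only from genes with higher counts, so these shares do not hold for genes with few UMIs. Simulated spread came from fitted dispersions, which are drawn toward those of other genes, so the shares may be too high for the real counts. The fits that left out 1 colon library had no batch term, so differences between the batches enter their values. How far the batches moved these values was not tested. Leaving out 1 library at a time, only 8 of the 67 genes named below kept a difference within 1.5 times of the value given (Il23r, Il17a, Dusp14, Tcf7, Pgk1, Rpl35, Ehd3 and Ly6k), and 13 of 18 list medians changed sign. The lists that kept theirs were Th17 genes, gut residency and integrins, AP-1 factors, heat shock chaperones and cholesterol synthesis genes. Keeping the sign did not mean that the batches agreed. The batch 1 and batch 2 pair medians were -0.22 and 0.21 for gut residency and integrins, and -0.26 and 1.49 for AP-1 factors. The plot of pair ratios shows how the named genes lie among all genes tested.

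**Figure D1:**
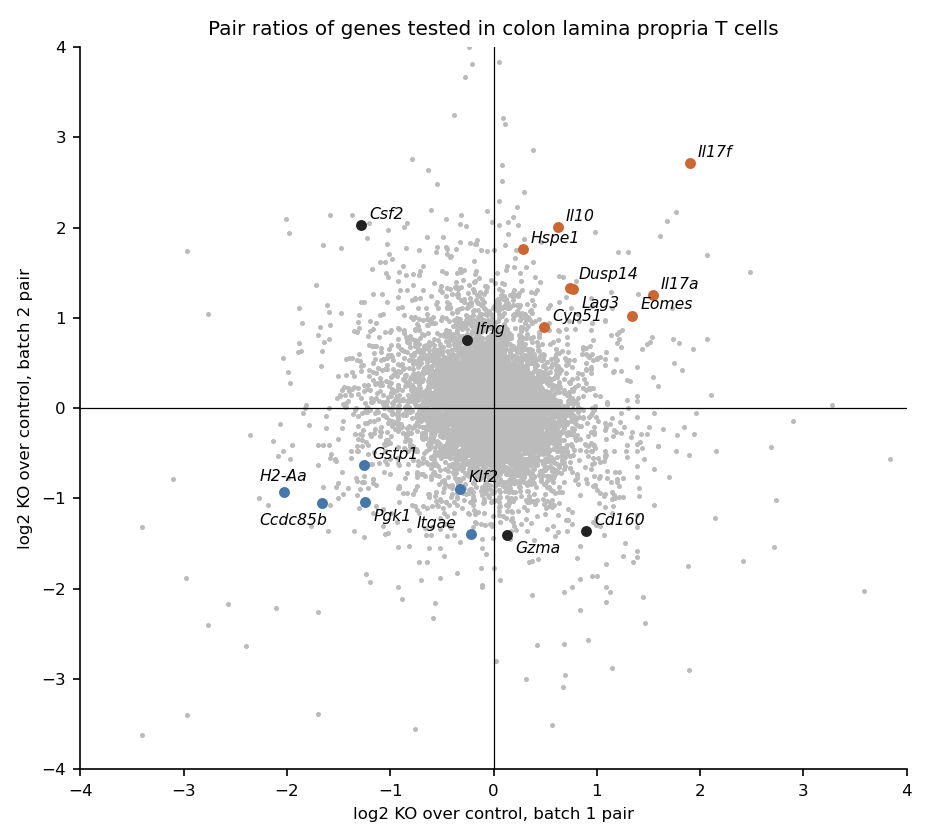
Log2 ratio of KO over control in the batch 1 pair (horizontal) and in the batch 2 pair (vertical) for the 10446 genes tested in colon lamina propria T cells, of which 9 lie outside the axes. Orange points are named genes higher in KO in both pairs, blue points lower in both and black points split. Il17a lies in the upper right at 1.54 and 1.25, Pgk1 in the lower left at -1.24 and -1.04, and Csf2 changed side at -1.28 and 2.03.

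A second count was added after these results were seen. Kept cells were thinned to 1500 UMIs and a gene counted at most once per cell, so that a level becomes the number of cells with a UMI. Kept cells with fewer UMIs were left out here and from every share at 1500 UMIs. They numbered 4 in control 1, 0 in KO 1, 155 in control 2 and 584 in KO 2. There 14 of 9255 genes passed, 7 higher and 7 lower in KO. The higher genes were Lag3, Eomes, Dusp14, Cyp51, Sertad1, Pqlc1 and Ly6k, and the lower ones were Ccdc85b, Gstp1 and 5 predicted genes or pseudogenes (Gm10020, Rpl13a-ps1, Gm5424, Gm10709 and Gm8730). All 14 lay on the same side in both batch pairs of the test on summed UMIs, where none passed. Both counts used the same libraries and the same batch term, so this agreement is no separate support. The SE of Lag3, Eomes and Dusp14 was 0.23, 0.29 and 0.24 here, no smaller than the SE given below for summed UMIs. The smaller p-values of this count thus do not show a smaller spread between the libraries. The count was chosen with the values known, so its calls are given as a description.

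Il23r itself (ENSMUSG00000049093, GRCm38 chr6:67422932-67491855) was detected at a low level. It measured 1.08 CPM in control 1, 2.66 in KO 1, 1.52 in control 2 and 2.07 in KO 2, from 7, 33, 19 and 18 UMIs, a difference of 0.82 ± 0.49. KO was above control in both pairs. The reads come from the 3′ end of transcripts and the altered alleles may still give such reads, so this level does not check the genotype. Of the 7 genes of receptor chains, kinases and STATs, 2 were higher in KO in both pairs and 1 was lower, with a median of 0.31 in the fit and pair medians of -0.15 in batch 1 and 0.70 in batch 2. Stat3, the main transducer of the receptor, measured 295 against 316 CPM in the first pair and 128 against 229 CPM in the second (control against KO in the batch 1 and batch 2 pairs, here and in what follows), a difference of 0.47 ± 0.22. Without control 2 it was -0.12. Il12rb1, the shared chain, measured 35.1 against 31.6 CPM in the first pair and 28.5 against 50.7 CPM in the second, so that its direction differed between the batches. Il12rb2, the interleukin-12 chain, measured 119.7 against 79.6 CPM in the first pair and 50.5 against 96.8 CPM in the second, and Stat4, its transducer, 223 against 219.9 CPM in the first pair and 88.4 against 138 CPM in the second, and both were lower in KO in batch 1 and higher in batch 2.

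Genes that STAT3 is known to drive had a small positive list median, and it did not stay above 0 without control 2. Of 12 such genes tested, 5 were higher in KO in both pairs and 1, Bcl3 (-0.32 ± 0.18), a co-factor of NF-κB, was lower, with a median of 0.24 (0.05 in batch 1 and 0.47 in batch 2) and none past the threshold. Without control 1, KO 1, control 2 and KO 2 in turn the list median was 0.43, 0.08, -0.0078 and 0.29. Socs3, an inhibitor that STAT3 induces against its own pathway, measured 148 CPM in control 1, 167 in KO 1, 111 in control 2 and 148 in KO 2. KO was above control within each batch, and the difference was 0.29 ± 0.17. Nfil3, a basic leucine zipper factor, gave 0.49 ± 0.19, from 63.8 against 75.6 CPM in the first pair and 30.3 against 50.8 CPM in the second.

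The Th17 cytokine genes Il17a and Il17f had higher summed levels in KO in both batches, and neither passed the test. Il17a (ENSMUSG00000025929, GRCm38 chr1:20730905-20734496) and Il17f (ENSMUSG00000041872, GRCm38 chr1:20777146-20790617) lie on opposite strands of chromosome 1 with 42649 bases between them. The 250 bases before each RefSeq start site (GRCm38.p6) are shown because both members of this pair lay on the same side in both batches. Capitals mark every match, on either strand, to the STAT palindrome TTCNNNGAA or the AP-1 site TGANTCA.
Il17a, chr1:20730655-20730904, plus strand: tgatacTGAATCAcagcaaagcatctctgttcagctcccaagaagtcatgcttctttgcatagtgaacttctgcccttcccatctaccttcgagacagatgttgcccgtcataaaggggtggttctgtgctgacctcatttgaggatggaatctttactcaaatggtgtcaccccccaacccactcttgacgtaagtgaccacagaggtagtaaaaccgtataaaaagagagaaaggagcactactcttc
Il17f, chr1:20784271-20784520, minus strand: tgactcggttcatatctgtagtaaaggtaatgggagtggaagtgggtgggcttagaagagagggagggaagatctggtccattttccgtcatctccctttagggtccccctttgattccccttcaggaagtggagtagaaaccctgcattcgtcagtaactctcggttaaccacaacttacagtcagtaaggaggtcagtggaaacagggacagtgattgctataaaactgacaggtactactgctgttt
The Il17a window holds 1 AP-1 match, 244 bases before the start, and the Il17f window holds 0. Neither window holds the STAT letters. Over 32851 mouse promoter windows of this length, 7.02% hold the STAT palindrome and 6.75% the AP-1 site, and a match is a description of letters only.

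Il17a measured 18.9 CPM in control 1, 55.3 in KO 1, 13.6 in control 2 and 32.6 in KO 2. Both KO libraries lay above both controls, and the difference was 1.41 ± 0.19 (edgeR, adjusted p = 0.477, and 5.34e-08 to 1 over its 16 alternatives). Il17f measured 4.64 CPM in control 1, 17.8 in KO 1, 0.880 in control 2 and 6.89 in KO 2, again without overlap (2.34 ± 0.33; edgeR, adjusted p = 0.477, and 2.23e-09 to 1 over its 16 alternatives). The difference of Il17f was 3.81, 1.39, 1.42 and 2.78 without control 1, KO 1, control 2 and KO 2 in turn. The UMIs came from few cells. Of the Il17a UMIs, the 5 cells with the most held 75.4% in control 1, 59.6% in KO 1, 41.8% in control 2 and 81.7% in KO 2, and a single KO 1 cell held 292 of that library's 685. Cells with an Il17a UMI numbered 20 of 1383, 97 of 2739, 65 of 3246 and 28 of 3260 in the same order. At 1500 UMIs per cell the shares were 0.725% and 1.90% in batch 1 and 1.10% and 0.673% in batch 2 (control, then KO), with 0 of 37 colon cells that lacked CD3 and carried markers of other cells (which allows up to 8.11%), so that in batch 2 the share of cells went against the CPM and no order is read from it. With each gene counted once per cell, the difference of Il17a was 0.28 and that of Il17f 0.91. The plot of UMIs by ranked cells sets Il17a beside Lag3, whose UMIs were spread over more cells.

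**Figure D2:**
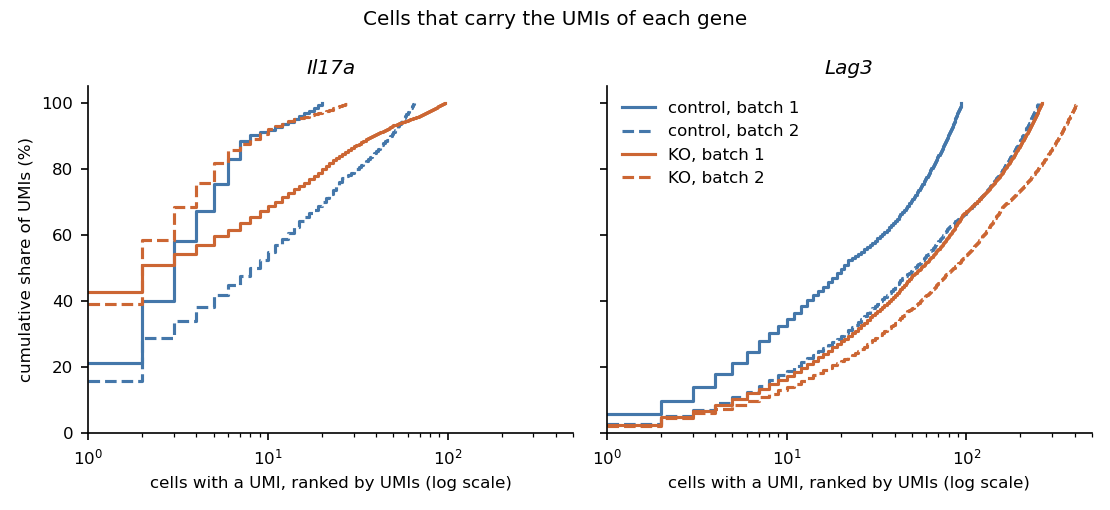
Cumulative share of a gene's UMIs (vertical, %) over the cells with a UMI ranked from the most to the fewest UMIs (horizontal, log scale), 1 line for each of the 4 colon lamina propria libraries. The 5 leading cells hold 41.8% to 81.7% of Il17a UMIs and 8.62% to 21.2% of Lag3 UMIs.

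Il22, a cytokine that acts on the epithelium, measured 154 CPM in control 1, 287 in KO 1, 90.0 in control 2 and 109 in KO 2 (0.59 ± 0.20). KO was higher within each batch, and the groups overlapped across batches. The 5 leading cells of a library held 36.1% to 79.3% of its UMIs. Without them, and without the TMM scaling, Il22 stood at 29.3 CPM in control 1, 136 in KO 1, 63.4 in control 2 and 42.0 in KO 2. The order in batch 2 thus rested on these cells, and the share of cells in batch 2 also went against the CPM. At 1500 UMIs per cell, 4.79% and 8.76% of cells had an Il22 UMI in batch 1 and 2.94% and 2.43% in batch 2. Of the 37 cells without CD3, 29.7% had one (exact 95% interval 15.9% to 47.0%, median depth 4872 UMIs before thinning). All cells with no CD3 UMI carried 1179 to 2676 CPM of NK cell and innate lymphoid markers per library, so this share is not used as a background. Among the T cells, a single KO 1 cell held 952 of that library's 3560 Il22 UMIs. Summed over all colon cells, with no CD3 rule, Il22 stood at 799, 1921, 102 and 552 CPM (control 1, KO 1, control 2, KO 2). Ccl20, a chemokine for CCR6-bearing cells, gave 1.08 ± 0.27 from 2 to 16 cells per library. Of 18 Th17 genes tested, 8 were higher and 1 lower in KO in both pairs (median 0.25, with 0.63 in batch 1 and 0.35 in batch 2). Maf, which encodes the basic leucine zipper factor c-MAF, was the lower one and was named after its values were seen, at 226 against 209 CPM in the first pair and 166 against 149 CPM in the second (-0.13 ± 0.16). Csf2, the gene of the cytokine GM-CSF, gave no common direction, at 33.1 against 13.5 CPM in the first pair and 2.72 against 11.7 CPM in the second (0.16 ± 1.10).

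**Figure D3:**
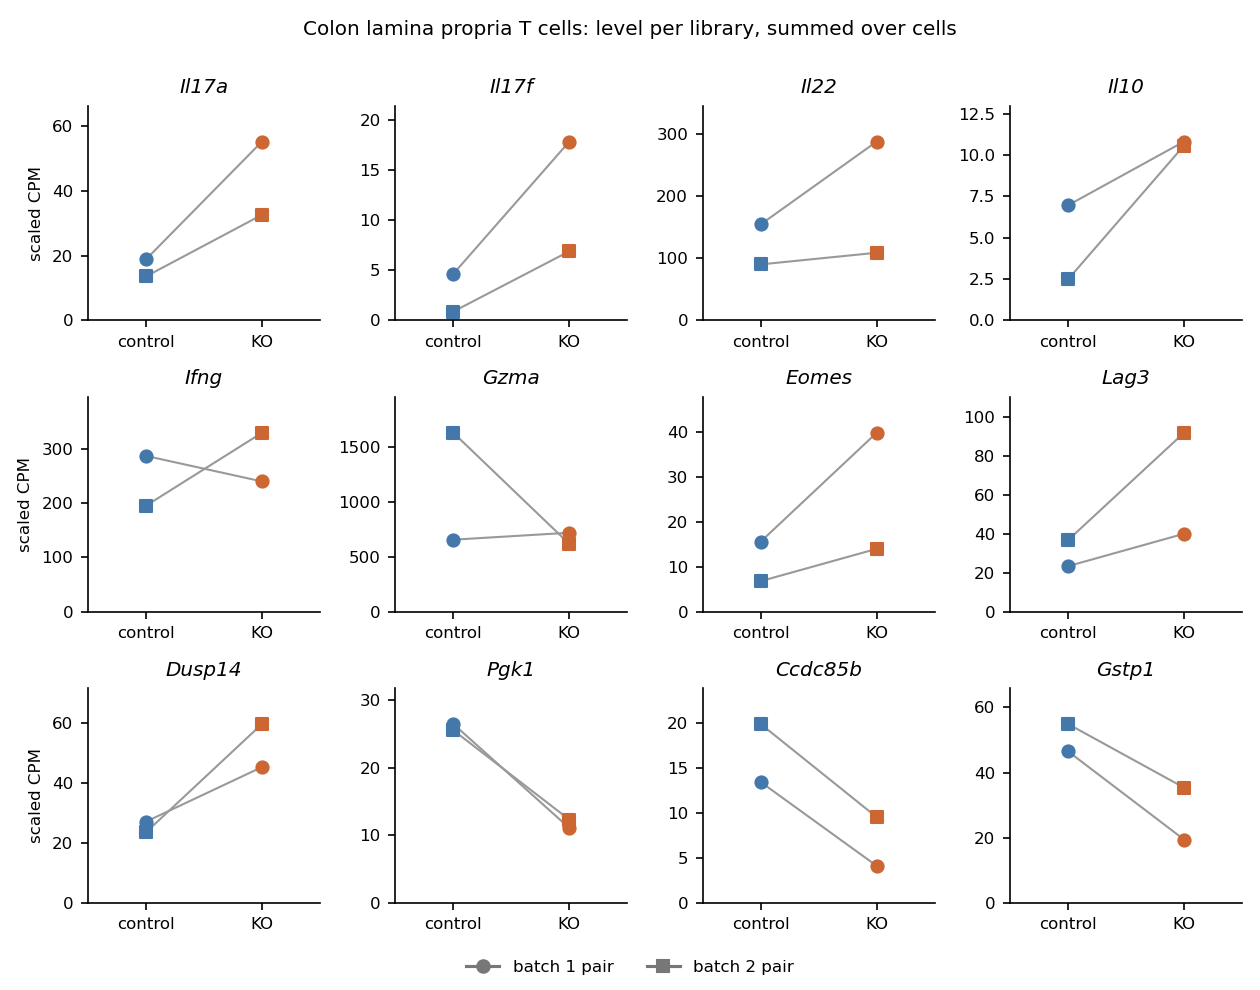
Level of 12 genes in each colon lamina propria library (vertical, scaled CPM from 0) in control (blue) and KO (orange), with circles for the batch 1 pair, squares for the batch 2 pair and a line joining each pair. Il17a, Eomes, Lag3 and Dusp14 are higher in KO in both pairs, and Pgk1 and Ccdc85b are lower in both.

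The Th1 cytokine gene Ifng had no common direction. It measured 288 CPM in control 1, 240.4 in KO 1, 196 in control 2 and 330.3 in KO 2, a difference of 0.25 ± 0.27 with pair ratios of -0.26 and 0.76. At 1500 UMIs per cell, 19.4% of control 1 cells (exact 95% binomial interval 17.3% to 21.5%) and 16.5% of KO 1 cells (15.1% to 17.9%) had an Ifng UMI, against 18.5% (17.2% to 20.0%) and 26.3% (24.6% to 28.0%) in batch 2. These intervals cover counting error only. Unthinned, the shares were 35.9%, 29.7%, 28.8% and 32.6% in the same order, and in the 37 cells without CD3 the thinned share was 2.70%. Tbx21 split the same way, at 64.6 against 50.8 CPM in the first pair and 26.3 against 61.9 CPM in the second (0.44 ± 0.44). Of 18 Th1 genes tested, 4 were higher and 2 lower in KO in both pairs, with medians of -0.14 in batch 1 and 0.55 in batch 2.

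Eomes was the Th1-list member with the smallest p-value. Eomes (ENSMUSG00000032446, GRCm38 chr9:118478212-118486132) encodes eomesodermin, a T-box factor related to T-bet that is known from memory and cytotoxic T cells. It measured 15.6 CPM in control 1, 39.9 in KO 1, 6.80 in control 2 and 14.0 in KO 2. KO was above control in each batch, although KO 2 lay below control 1, and the difference was 1.21 ± 0.21 (edgeR, adjusted p = 0.558). Without control 1, KO 1, control 2 and KO 2 in turn it was 2, 0.34, 0.79 and 1.85. Cells with an Eomes UMI numbered 53 of 1383, 280 of 2739, 53 of 3246 and 82 of 3260. With each gene counted once per cell the difference was 1.27 (edgeR, adjusted p = 0.0159, and 0.000105 to 1 over its 16 alternatives). Eomes is also a marker of NK cells, and the 10 markers of NK cells and innate lymphoid cells, Eomes among them, summed to 312 against 301 CPM in the first pair and 333 against 256 CPM in the second in the kept cells. Of the 9 of them tested, 6 had a fitted difference above 0 and 3 below, 2 were higher and 0 lower in both pairs, and the median was 0.64 (-0.13 in batch 1 and 1.29 in batch 2), so the sum and the median differ in sign. Their part in the Eomes difference was not tested.

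Genes of cytotoxic granules split between the batches. Gzma, a granule protease, measured 654 CPM in control 1, 717 in KO 1, 1626 in control 2 and 615 in KO 2 (-0.64 ± 0.43), so that control 2 stood apart, and without it the difference was 0.02. Cd160, a receptor of cytotoxic and gut T cells, measured 11.4 CPM in control 1, 21.4 in KO 1, 83.9 in control 2 and 32.5 in KO 2 (-0.34 ± 0.67), and leaving out control 2 gave 1.22. Gzmb, another granule protease, measured 584 against 682 CPM in the first pair and 817 against 796 CPM in the second (0.09 ± 0.17). Of 15 genes of this list, 2 were higher and 2 lower in both pairs, with a median of 0.06.

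Among inhibitory receptors Lag3 had the smallest p-value. Lag3 (ENSMUSG00000030124, GRCm38 chr6:124904361-124911705), a receptor that restrains T cells on binding MHC class II, measured 23.3 CPM in control 1, 40.0 in KO 1, 36.7 in control 2 and 91.9 in KO 2. Both KO libraries lay above both controls, and the difference was 1.06 ± 0.20 (edgeR, adjusted p = 0.568). Without control 1, KO 1, control 2 and KO 2 in turn it was 0.85, 1.61, 1.49 and 0.41. Cells with a Lag3 UMI numbered 94 of 1383, 263 of 2739, 252 of 3246 and 411 of 3260. Counted once per cell the difference was 1.07 (edgeR, adjusted p = 0.0131, and 9.8e-05 to 1 over its 16 alternatives). Of 14 co-inhibitory receptors and TOX factors, 7 were higher in KO in both pairs and 2 lower, with medians of 0.15 in batch 1 and 0.27 in batch 2. Pdcd1, which encodes PD-1, measured 35.4 against 48.0 CPM in the first pair and 24.5 against 43.4 CPM in the second (0.63 ± 0.18). Havcr2, which encodes TIM-3, gave 0.78 ± 0.30, and Tox, a nuclear factor of exhausted T cells, 0.68 ± 0.31. Ctla4, another inhibitory receptor, measured 709.7 against 766 CPM in the first pair and 376 against 615 CPM in the second (0.41 ± 0.20).

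Il10, an anti-inflammatory cytokine, measured 6.96 CPM in control 1, 10.8 in KO 1, 2.48 in control 2 and 10.6 in KO 2 (1.33 ± 0.39). Both KO libraries lay above both controls, with 17 of 1383, 63 of 2739, 18 of 3246 and 47 of 3260 cells having a UMI. Without control 1, KO 1, control 2 and KO 2 in turn the difference was 2.11, 1.20, 0.61 and 1.23. Among 12 genes whose share of cells was read at 1500 UMIs, Il10 was the 1 that was higher in KO in both batches, at 0.653% (0.299% to 1.24%) and 1.20% (0.831% to 1.69%) in batch 1 and 0.291% (0.133% to 0.552%) and 0.972% (0.636% to 1.42%) in batch 2. Of the 37 cells without CD3, 0 had an Il10 UMI, which allows a share of up to 8.11%. The shares of 2 genes, Gzma and Foxp3, were lower in KO in both batches, and that of Gzma went against its CPM in batch 1. Foxp3, the factor of regulatory T cells, stood at 2.47 against 1.86 CPM in the first pair and 4.48 against 2.07 CPM in the second (-0.79 ± 0.43). Ikzf3, which encodes Aiolos, measured 54.4 against 81.1 CPM in the first pair and 39.9 against 66.5 CPM in the second (0.66 ± 0.17). Of 12 genes of interleukin-10 and regulatory T cells, 5 were higher in both pairs and 3 lower, with a median of 0.11.

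Dusp14 had the smallest p-value among genes that respond to the antigen receptor. Dusp14 (ENSMUSG00000018648, GRCm38 chr11:84048041-84069261), a phosphatase that dampens T cell receptor signalling, measured 27.1 CPM in control 1, 45.3 in KO 1, 23.5 in control 2 and 59.6 in KO 2. The groups did not overlap, and the difference was 1.05 ± 0.20 (edgeR, adjusted p = 0.66), or 1.04 counted once per cell (edgeR, adjusted p = 0.0266, and 0.000144 to 1 over its 16 alternatives). Of 17 such genes, 7 were higher in KO in both pairs and 0 lower, with list medians of -0.04 in batch 1 and 0.67 in batch 2. Nr4a2, an early response factor, measured 203 against 207 CPM in the first pair and 80.5 against 171 CPM in the second. Areg, which encodes the repair factor amphiregulin, measured 99.4 against 128 CPM in the first pair and 85.0 against 99.8 CPM in the second (0.30 ± 0.16).

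Sertad1, Pqlc1, Rgs16 and Cd27 were also among the genes higher in KO with the smallest p-values. Sertad1, a cell cycle regulator, measured 59.5 against 95.2 CPM in the first pair and 26.9 against 73.7 CPM in the second (1.06 ± 0.22, and 1.66, 0.78, 0.50 and 1.14 without control 1, KO 1, control 2 and KO 2 in turn), and Pqlc1 gave 0.82 ± 0.19. Rgs16, which limits chemokine receptor signalling, gave 0.97 ± 0.23. Cd27, a co-stimulatory receptor of the TNF receptor family, measured 70.6 against 131 CPM in the first pair and 39.9 against 56.6 CPM in the second (0.70 ± 0.18), and without KO 1 the difference was 0.04. Ly6k, named after its values were seen because it passed when counted once per cell, measured 3.25 against 10.3 CPM in the first pair and 1.36 against 5.63 CPM in the second (1.84 ± 0.34). Cxcr5, the receptor that guides T cells to B cell follicles, rested on few UMIs, with 3.25 against 7.74 CPM in the first pair and 1.04 against 3.91 CPM in the second (1.54 ± 0.39).

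Genes of naive and recirculating T cells had a negative median in batch 2. Of 16 tested, 3 were higher and 5 lower in KO in both pairs (median -0.32, with 0.07 in batch 1 and -0.51 in batch 2). Without control 1, KO 1, control 2 and KO 2 in turn the list median was -0.08, -0.54, -0.22 and 0.21, so its sign turned without KO 2. Klf2, a factor that keeps T cells recirculating, measured 330.4 against 264 CPM in the first pair and 567 against 306 CPM in the second (-0.61 ± 0.20). S1pr1, the receptor for exit into lymph that KLF2 drives, measured 53.2 against 53.1 CPM in the first pair and 76.7 against 33.4 CPM in the second (-0.60 ± 0.32). Tcf7, a factor of naive and memory T cells, gave -0.33 ± 0.17 and Il7r, the interleukin-7 receptor gene, -0.34 ± 0.18. Of 16 genes of gut residency and integrins, 1 was higher in both pairs and 3 lower (median -0.06, with -0.22 in batch 1 and 0.21 in batch 2). Itgae, which encodes the CD103 integrin chain that binds epithelial E-cadherin, measured 19.5 against 16.7 CPM in the first pair and 56.4 against 21.3 CPM in the second (-0.84 ± 0.32), with control 2 again the high library, and without it the difference was -0.05.

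Cholesterol synthesis genes had positive medians in both batches. Of 14 tested, 11 were higher in KO in both pairs and 0 lower, with medians of 0.18 in batch 1 and 0.30 in batch 2, and leaving out any 1 library gave medians from 0.15 to 0.32. None passed. Cyp51, a demethylase of the sterol pathway, measured 69.1 CPM in control 1, 97.2 in KO 1, 32.5 in control 2 and 60.8 in KO 2 (0.69 ± 0.18), ranging from 0.19 without control 2 to 1.28 without control 1, and counted once per cell it gave 0.84 (edgeR, adjusted p = 0.0289, and 0.0289 to 1 over its 16 alternatives). Idi1, an isomerase of the same pathway, gave 0.44 ± 0.17, Insig1, a brake on sterol synthesis, 0.44 ± 0.19, and Msmo1, a sterol oxidase, 0.39 ± 0.18.

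Heat shock chaperones had a high list median that came mostly from batch 2. Of 20 tested, 14 were higher in KO in both pairs and 0 lower, with a median of 0.85 in the fit, 0.10 in batch 1 and 1.55 in batch 2. Hspe1, a mitochondrial chaperonin, measured 931 against 1132 CPM in the first pair and 219.6 against 743 CPM in the second (1.02 ± 0.41). Hspa4l gave 0.73 ± 0.28 and Cacybp 0.63 ± 0.26. Hspa1a, an inducible HSP70 gene singled out after its values were seen, measured 933 against 1000.3 CPM in the first pair and 34.1 against 4217 CPM in the second, so that control 2 was the low library and KO 2 the high one. Without control 2 the list median was 0.06, and without control 1 it was 1.73. AP-1 factors, which also respond to stress, had medians of -0.26 in batch 1 and 1.49 in batch 2 over 8 genes, and 1, Fos, was higher in KO in both pairs (131 against 175 CPM in the first pair and 65.2 against 162 CPM in the second). KO 2 was also the library with the lowest median depth, and cells over 10% mitochondrial UMIs made up 0.277% of control 2 and 0.920% of KO 2. Without those cells, which were too few to move a sum by much, the median of the chaperones was 0.86. With cells thinned to 1500 UMIs and shallower cells left out, the median of the chaperones was 0.91. The part of cell quality or handling in the batch 2 difference was not tested.

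**Figure D4:**
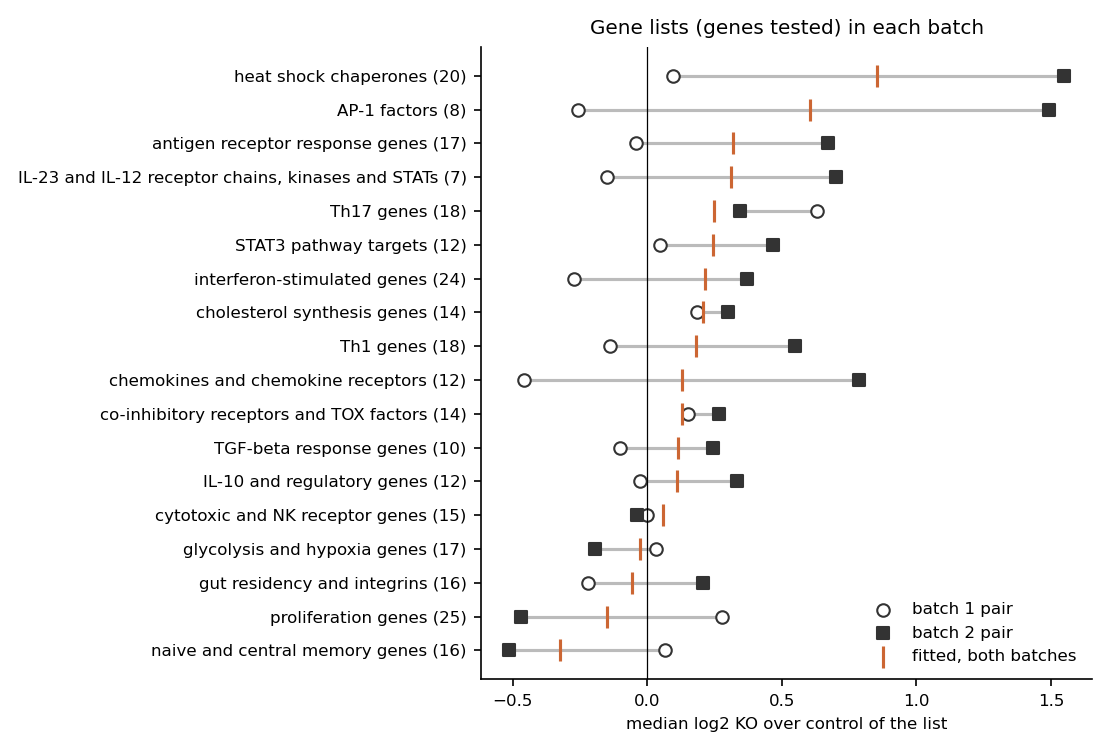
Median log2 KO over control of each gene list (horizontal) in the batch 1 pair (open circles), the batch 2 pair (filled squares) and the fit over both (vertical bars), with the number of genes tested in brackets. Heat shock chaperones range from 0.10 to 1.55, whereas cholesterol synthesis genes stand at 0.18 and 0.30.

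On the lower side Pgk1, Ccdc85b, Gstp1 and H2-Aa were among the genes with the smallest p-values. Pgk1 (ENSMUSG00000062070, GRCm38 chrX:106187100-106203699), a glycolytic kinase, measured 26.4 CPM in control 1, 11.1 in KO 1, 25.5 in control 2 and 12.3 in KO 2. The groups did not overlap, and the difference was -1.15 ± 0.20 (edgeR, adjusted p = 0.558, and 0.000346 to 1 over its 16 alternatives). Pgk1 has near-identical processed copies, so its counts are uncertain. Of 17 genes of glycolysis and hypoxia, 5 were higher and 4 lower in KO in both pairs (median -0.03). Eno1, an enolase gene that also has a near-identical copy, gave -0.47 ± 0.17, and Egln3, an oxygen sensor, 0.54 ± 0.19. Ccdc85b measured 13.4 against 4.11 CPM in the first pair and 19.9 against 9.53 CPM in the second (-1.35 ± 0.25, and -1.56, -0.81, -1.01 and -2.03 without control 1, KO 1, control 2 and KO 2 in turn), and once per cell -1.30 (edgeR, adjusted p = 0.0311, and 0.000134 to 1 over its 16 alternatives). Gstp1, a glutathione transferase with a close paralog, measured 46.5 against 19.4 CPM in the first pair and 54.9 against 35.4 CPM in the second (-0.94 ± 0.20, and -1, -0.52, -0.78 and -1.39 in the same order), and once per cell -0.94 (edgeR, adjusted p = 0.0311, and 0.00232 to 1 over its 16 alternatives). H2-Aa, an MHC class II chain of antigen-presenting cells, measured 56.7 against 13.8 CPM in the first pair and 19.6 against 10.2 CPM in the second (-1.52 ± 0.30), but 1 cell held 201 of 367 UMIs in control 1, the once-per-cell difference was -0.02, and over all colon cells it was 0.53. The remaining lower genes of this kind were Rpl35, a ribosomal protein gene (-0.59 ± 0.17), Lrch4 (-0.81 ± 0.22), Sh2d3c (-0.74 ± 0.22), Ehd3 (-0.57 ± 0.17), Lpcat4 (-0.73 ± 0.23) and Ccna2.

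Genes of cell division had no common direction. Of 25 tested, 2 were higher and 4 lower in KO in both pairs, with medians of 0.28 in batch 1 and -0.47 in batch 2. Ccna2, a cyclin of S phase, measured 12.5 against 9.36 CPM in the first pair and 42.9 against 17.0 CPM in the second (-0.92 ± 0.26), and Ccnb2, a mitotic cyclin, gave -0.74 ± 0.26. Without control 2 these were 0.06 and 0.18. Interferon-stimulated genes had medians of -0.27 and 0.37 over 24 genes, with 5 higher and 2 lower in both pairs. Chemokines and their receptors had medians of -0.46 and 0.79 over 12 genes (2 higher, 1 lower), and genes of the TGF-beta response -0.10 and 0.24 over 10 (1 higher, 2 lower).

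The kept cells held some UMIs of other cell types, and erythroid markers in control 1 reached a high sum. Macrophage markers summed to 34.8 against 13.8 CPM in the first pair and 27.3 against 23.0 CPM in the second, with 3 of 6 tested genes lower in both pairs and Mrc1 at 0 in 3 libraries. Epithelial markers summed to 28.5 against 15.1 CPM in the first pair and 177 against 22.7 CPM in the second, with 5 of 6 tested lower in both pairs, and 267 of the 278 UMIs of Agr2, a secretory cell gene, in control 2 came from 1 cell. Erythroid markers summed to 1509 CPM in control 1 and to at most 6.04 CPM in the other libraries. B cell markers summed to 1.57 to 3 CPM with Jchain, Ms4a1 and Pax5 at 0 in all 4 libraries, neutrophil markers to 0.377 to 1.57 CPM with S100a9 and Retnlg at 0, mast cell markers to 0.453 to 4.22 CPM, dendritic cell markers to 10.6 to 18 CPM with Cd209a and Flt3 at 0, and stromal markers to 40.1 to 56.8 CPM. Without the kept cells that carried 3 or more UMIs of macrophage, epithelial or B and plasma cell markers, the difference was 1.08 for Lag3, 1.22 for Eomes and 1.40 for Il17a. Cells with erythroid or the remaining markers were not removed by this rule.

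The comparison with spleen asked whether the KO effect differed between the tissues. No gene passed, with 0 of 10976 (0%) by edgeR and 150 higher and 235 lower at an unadjusted p under 0.05, and DESeq2 called 8. Pgk1 had pair ratios of -1.24 and -1.04 in colon lamina propria and 0.61 and 1.46 in spleen (difference -2.17 ± 0.33; edgeR, adjusted p = 0.469). Ccdc85b, with 0.16 and 1.15 in spleen (-2 ± 0.41), H2-Aa, with 1.90 and 0.90 (-3 ± 0.50), and Serinc3, with -0.41 and -0.37 in colon and 1.10 and 0.47 in spleen, lay on the same side. On the other side Cd27 gave 0.89 and 0.50 in colon and -0.91 and -0.21 in spleen (1.27 ± 0.28). Egln3 gave 0.62 and 0.45 against -1.05 and -0.59 (1.33 ± 0.32), Ramp3 0.05 and 0.39 against -0.90 and -0.96 (1.19 ± 0.26) and Socs3 0.17 and 0.41 against -0.83 and -0.40 (0.91 ± 0.23). Eomes and Lag3 split between the spleen batches, at -0.59 and 1.18 and at -0.61 and 1.34. Dusp14 gave -0.15 and 0.16 in spleen (difference 1.03 ± 0.30). Il17a was at 0, 0.405, 2.11 and 0 CPM in the spleen libraries, so no fold is given there.

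**Figure D5:**
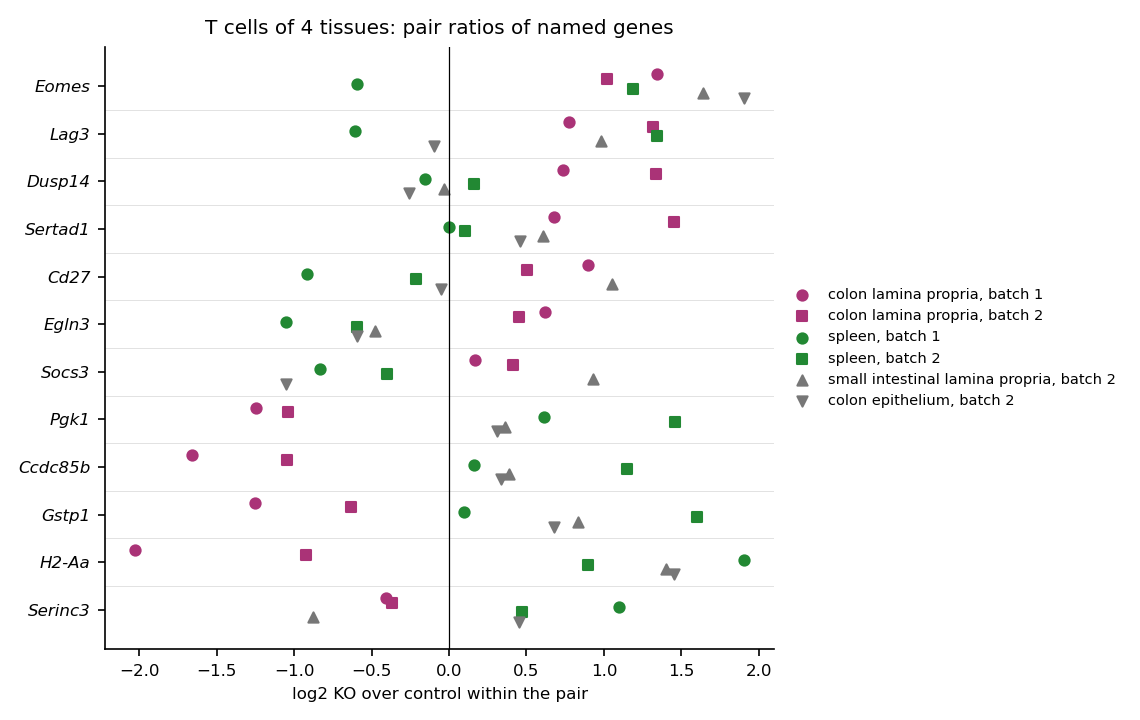
Log2 ratio of KO over control within each pair (horizontal) for named genes in T cells of colon lamina propria and spleen (2 pairs each) and of small intestinal lamina propria and colon epithelium (1 pair each). Purple marks colon lamina propria, green spleen and grey the other tissues, and Pgk1 and Ccdc85b are lower in KO in both colon lamina propria pairs and higher in the other 4 pairs.

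In the small intestinal lamina propria and in the colon epithelium each genotype had a single library, of batch 2, so their values have no replicate check. Eomes measured 15.2 CPM in control and 48.3 in KO in small intestine, and 1.41 and 5.78 in epithelium. Il17a measured 46.2 and 115 CPM in small intestine and 12.5 and 9.29 in epithelium. Lag3 measured 31.0 and 61.7 CPM in small intestine and 205 and 192 in epithelium. The rule kept 813 of 1606 cells of the small intestinal KO library, against 2069 of 2250 in its control.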

How the data were processed

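Droplet libraries (10x 3′ version 2) were made from CD4 T cells of mice, per the labels' protocols, and the 4 colon lamina propria libraries were the main samples. The authors deposited 1 matrix of UMI counts (18601 genes, 32763 cells) and a cell table. Per the submitters' processing notes, Cell Ranger 2.0.2 and mm10 were used, and the sources used here do not say how cells, doublets and genes were filtered. Groups came from the labels of each library, and 2 columns of the table (genotype and tissue) were not used. No doublet caller was run. Counts of cells with at least 3 CD3 UMIs were summed per library, with 7041088 to 13248318 UMIs each, and tested in R 4.3.3 with edgeR 4.0.16 (filterByExpr, TMM, glmQLFit, glmQLFTest) with the batch as a term. DESeq2 1.42.0 was an alternative. Colon minus spleen was an interaction term over 8 libraries. Same-numbered libraries deviated together from their group means (r = 0.497 over 10446 genes, and 0.462 without sex-linked genes), and the number was the batch of all 32763 cells. The test was tested on simulated data, where 17 of 10125 unchanged genes were called.

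The text names 24 genes fixed for this tissue, the 10 genes each way with the smallest p-value (mean of at least 10 CPM, both pairs on 1 side), 5 each way for the interaction, and up to 4 per list and 3 per marker list, of which not all are given values here. The members, lists and markers were chosen with earlier results of these data known. Alternatives were the fit without the replicate block, DESeq2, other size factors, no filter on low counts, each library left out, CD3 minimums of 1 and 5, all cells, cells without markers of other types, cells under 10% mitochondrial UMIs, cells thinned to 1500 UMIs and a fit over both tissues. Shares of cells have exact 95% binomial intervals. Trac, Trbc1, Trbc2 and the gamma delta constant genes were not analysed here, and 1 other gene of the lists is not reported here and was left out of them. Promoters came from RefSeq (GRCm38.p6), and both members searched were found.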

Additional observations from a re-analysis of the deposited data

How the results depend on the processing

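With 2 libraries per genotype the calls depended on the settings. The colon fits that left out 1 library had no batch term, so their values also carry differences between the batches. Genes called in colon lamina propria numbered 32 higher and 63 lower with no filter on low counts (95, of which 74 were also tested with the filter), 7 and 7 counted once per cell, and, leaving out 1 library at a time, 0 to 27 higher and 0 to 24 lower. Those were 27 and 24 without control 1, 1 and 20 without control 2 and 0 and 0 without either KO library, and a lone library in a group is assumed to vary like the others. Without the replicate block 0 genes were called (28 higher and 51 lower at an unadjusted p under 0.05), and the block changed no other count of calls. DESeq2, other size factors, the other CD3 minimums, all cells, the cell filters, thinning and the fit over both tissues also called 0. For the difference from spleen, DESeq2 called 8 genes, no filter 22 and all cells 1, and leaving out 1 library gave 1 to 10. Of 12 shares of cells, 4 were lower in KO in both batches without thinning and 2 were higher at 1000 UMIs. Of 1066 values of 67 named genes, 37 changed sign, in 22 genes. Against 1 standard deviation between the batch pairs of the same list, 265 of the list medians moved by less and 23 by more. That yardstick is wide where the batches disagree, so the 265 are no measure of stability. For heat shock chaperones a fall from 0.85 to 0.06 without control 2 counted as less. Leaving out 1 library, differences that changed sign ranged over these values: Il12rb1 -0.0098 to 0.68, Il12rb2 -0.45 to 0.81, Stat3 -0.12 to 1.09, Stat4 -0.32 to 1.02, Il22 -0.16 to 1.23, Ifng -0.0205 to 0.55, Tbx21 -0.21 to 1.10, Csf2 -1.40 to 2.21, Ctla4 -0.0485 to 0.88, Cd160 -1.64 to 1.22, Nr4a2 -0.109 to 1.24, Gzma -1.28 to 0.0178, Gzmb -0.14 to 0.33, Ccna2 -1.71 to 0.0556, Ccnb2 -1.51 to 0.18, Lpcat4 -1.78 to 0.13, Nfil3 -0.0225 to 1.06, Agr2 -5.57 to 0.85, Serinc3 -1.50 to 0.73, Ramp3 -1.74 to 2.22, Maf -0.39 to 0.115. For Lag3 the difference from spleen ranged from -0.26 to 1.69. Among the other settings, fitted without the replicate block Csf2 gave -0.47, at CD3 of 5 UMIs or more Csf2 gave -0.0253, thinned to 1500 UMIs Csf2 gave -0.0498, thinned to 1500 UMIs Gzmb gave -0.0044, once per cell Gzmb gave -0.111, over all cells H2-Aa gave 0.53. The cause was not tested. With 2 libraries per genotype, differences under 1 on the log2 scale are often not detectable.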

Other observations

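Groups of genes that no list covered were looked at after the values were seen, and in each of them 0 genes passed the test of edgeR. Replication-dependent histone genes, whose transcripts are made in S phase, had a median of -0.60 over 34 genes, with 24 lower and 0 higher in KO in both batch pairs (-0.59 in batch 1, -0.37 in batch 2). Counted once per cell the median was -0.51, and in spleen the pair medians were -0.02 and 0.80. Medians counted once per cell, here and below, leave out members that were not tested in that count, so they cover fewer genes. MHC class I and peptide loading genes, which display antigen on most cells, were higher in both pairs for 11 of 19 and lower for 0, with a median of 0.15 (0.01 in batch 1, 0.40 in batch 2, and 0.06 counted once per cell).

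MHC class II genes, which antigen-presenting cells display, were lower in both pairs for 6 of 7 (median -1.09, with -1.79 in batch 1 and -0.36 in batch 2), and counted once per cell their median was -0.13. Genes annotated as processed pseudogenes were lower in both pairs for 25 of 47 and higher for 0. Their median was -0.74, with -1.34 in batch 1, -0.0016 in batch 2 and -0.59 counted once per cell, and reads of such genes may come from their parent genes. Genes of cytosolic ribosomal proteins had a median of -0.07 (0.0061 in batch 1, -0.13 in batch 2, and 0.0086 counted once per cell) over 82 genes, with 23 lower and 5 higher in both pairs.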
